A study of Mus musculus with 24 samples.

Results

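The replication-dependent histone genes are the gene copies, grouped in clusters, that make the core histones H2A, H2B, H3 and H4 and the linker histone H1. They were taken here as every gene whose older mouse symbol starts with Hist1h, Hist2h, Hist3h or Hist4h. The RefSeq table used for gene names holds 70 such genes, of which 47 are on the array among 19752 gene symbols. For 46 of them a usable probe was read on every array, and 42 were bright enough to be tested. These comprise 4 genes for H1, 12 for H2A, 10 for H2B, 8 for H3 and 8 for H4.

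The study measured total RNA of whole lung from healthy postnatal C57BL/6 mice on 1-colour Agilent arrays, in which Cy3-labelled RNA is hybridised to short probes. There were 5 arrays each at postnatal days 1, 4, 7 and 14 and 4 arrays at day 42, 24 in all. No treatment or allele is named, so age is the only factor, and the question the design puts is how transcript levels differ between ages. The labels call the arrays biological replicates without naming animals, so the p-values measure the spread between these samples. The series is titled as fetal lung although every sample is labelled postnatal.

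Cells make these histones mainly while they copy their DNA, because each new chromatid needs its own nucleosomes. Their mRNAs mostly end in a stem-loop rather than a poly(A) tail, and they are destroyed when DNA synthesis stops. Some of these genes, Hist1h1c among them, are also known to give polyadenylated transcripts in cells that have stopped dividing. The lung of a newborn mouse is still growing and forming alveoli, and cell division slows as it matures. The labels do not state how the labelling reaction was primed. A reaction primed on poly(A) tails would copy only the polyadenylated share of these mRNAs.

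Promoter sequences are shown for 5 members on which the results below turn, because the members differ in which short motifs stand upstream of their start. Each is the 150 bases before a transcription start in the RefSeq annotation of GRCm38.p6, written 5′ to 3′ on the strand of the gene, with capitals marking 3 motifs on either strand: CCAAT (the CCAAT box, ATTGG when reversed), TATAAA (the TATA box) and ATTTGCAT (the octamer bound by POU-domain factors, ATGCAAAT when reversed). None of the 3 motifs contains another.
Hist1h1b: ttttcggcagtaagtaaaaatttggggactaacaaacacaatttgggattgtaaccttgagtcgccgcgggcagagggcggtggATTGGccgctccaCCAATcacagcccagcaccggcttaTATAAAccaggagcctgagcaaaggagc
Hist1h2ab: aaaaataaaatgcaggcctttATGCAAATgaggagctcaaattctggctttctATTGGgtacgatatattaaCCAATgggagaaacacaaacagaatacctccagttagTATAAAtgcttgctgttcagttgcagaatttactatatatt
Hist1h2bm: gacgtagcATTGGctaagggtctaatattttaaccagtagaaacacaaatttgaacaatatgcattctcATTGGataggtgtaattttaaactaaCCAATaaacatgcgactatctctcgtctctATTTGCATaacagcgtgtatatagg
Hist2h2aa1: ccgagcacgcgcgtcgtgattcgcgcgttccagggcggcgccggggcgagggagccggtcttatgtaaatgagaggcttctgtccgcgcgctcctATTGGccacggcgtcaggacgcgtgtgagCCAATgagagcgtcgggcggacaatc
Hist2h3c2: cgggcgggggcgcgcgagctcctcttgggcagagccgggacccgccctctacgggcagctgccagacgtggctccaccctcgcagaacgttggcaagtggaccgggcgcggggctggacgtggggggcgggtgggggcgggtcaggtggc
The Hist1h1b window is chr13:21780626-21780775 on the minus strand. The Hist1h2ab window is chr13:23750938-23751087 on the plus strand, that of Hist1h2bm is chr13:21721894-21722043 on the plus strand, that of Hist2h2aa1 is chr3:96245347-96245496 on the plus strand and that of Hist2h3c2 is chr3:96239128-96239277 on the minus strand. Hist1h1b and Hist1h2ab, the members lowest at day 42 relative to day 1, carry both a CCAAT box and a TATAAA, whereas the Hist2h3c2 window holds no match to any of the 3 motifs.

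Over the 250 bases before each start, 52 of the 63 member promoters (62 genes) held a CCAAT, or 82.5%, against 33.8% of 32851 RefSeq promoters. TATAAA stood in 46% of the member promoters against 12.4% of all, and ATTTGCAT in 22.2% against 1.6%. The motifs were not spread evenly over the histone types. Every H1, H2A and H2B promoter held a CCAAT (6 of 6, 18 of 18 and 17 of 17), as did 8 of 10 for H3, but only 3 of 12 for H4. The octamer stood in 7 of 18 H2A and 7 of 17 H2B promoters and in none of the H1, H3 and H4 promoters. Among the members lower at day 42 than at day 1 in the test described below, TATAAA was present in 13 of 24 promoters. It was in 0 of the 4 promoters of the 3 genes that were higher, Hist1h2be having 2 starts, and in 5 of 10 of those that passed in neither direction. In the same order CCAAT stood in 20 of 24, 3 of 4 and 8 of 10 promoters, and ATTTGCAT in 5 of 24, 1 of 4 and 6 of 10. A promoter without any of the 3 motifs was not particular to Hist2h3c2: Hist1h4j, Hist4h4 and Hist2h3c1, which were lower at day 42, held none either. These matches are a description of letters in this window and were not tested.

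Levels are log2 intensities relative to the 75th percentile of each array, so a value of 0 is a signal equal to that percentile. Levels of different genes come from different probes and are not compared with one another. Values listed for an age follow the replicate numbers. The main test was limma on all 15895 genes with enough signal, and a member is said to have risen or fallen where its p, adjusted over all these genes, is under 0.05. In whole tissue, fewer cells of a type and less RNA per cell cannot be told apart.

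The 75th percentile of signal ran from 476.09 to 1652.7 intensity units over the 24 arrays. On 5 arrays it was lowest and at most 56% of spots were well above background: replicates 4 and 5 at day 1, replicates 1 and 3 at day 4, and replicate 4 at day 42. On these 5 most of the histone genes stood above the other arrays of their age. For the 33 members above background on every array, the median offset from the remaining arrays of the same age ran from 0.93 (day 4 replicate 3) to 1.90 (day 1 replicate 4) and was 1.48 on day 42 replicate 4. For all genes it ran from 0.52 to 0.83. Day 7 replicate 5, an array with ordinary signal, was also high, with an offset of 0.56 against 0.22. How far signal strength bears on the histone results was not tested.

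**Figure D1:**
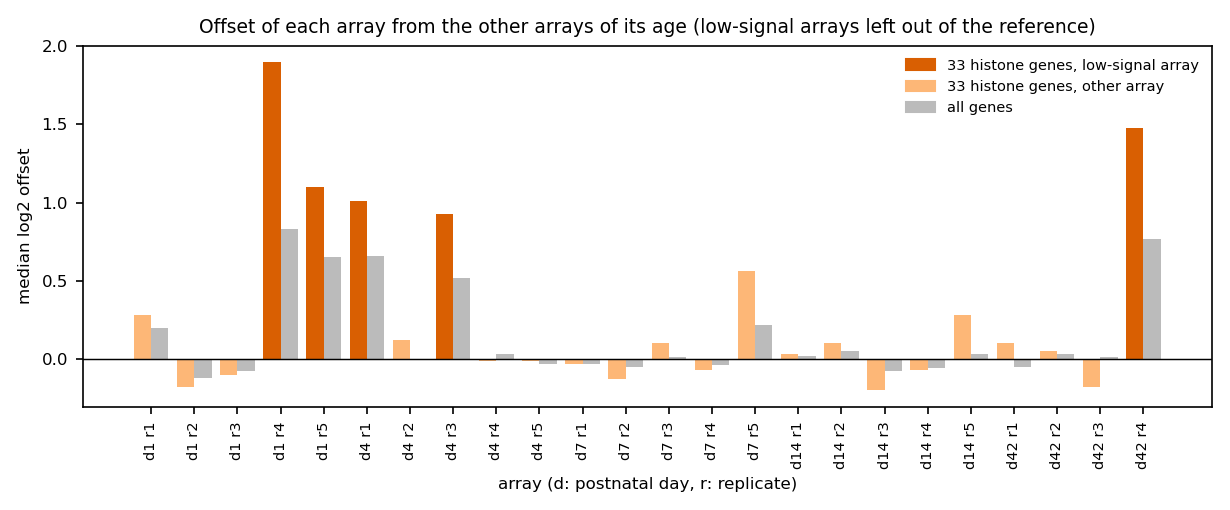
Median log2 offset of each of the 24 arrays from the other arrays of its age, for the 33 histone genes above background on every array (orange, dark for the 5 low-signal arrays) and for all 13203 genes with that property (grey). The histone bars of the 5 low-signal arrays reach 0.93 to 1.90, above the grey bars of the same arrays.

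Most of the tested members fell between day 1 and day 42, and a few rose. Of 42 tested, 27 fell and 3 rose, against 13.7% of all tested genes lower and 13% higher. A difference at any age was called for 32 of the 42 by the moderated F-test, against 31.8% of all genes, and for 37 without the 5 low-signal arrays, against 54%. Between day 7 and day 14, the neighbouring ages with most calls, 9 fell and 6 rose, against 5.54% lower and 6.04% higher among all genes. The split depends on the scaling: with each array set to its median, 7 fell and 1 rose, with quantile normalization 16 fell and 6 rose, and with the authors' deposited values 17 fell and 9 rose. The share of all genes called in either direction moved as well, to 8.21%, 18% and 22.4% in this order, against 11.6% in the main test. The counts also depend on 1 array: without day 14 replicate 1, 7 fell and 2 rose, against 4.23% lower and 4.25% higher among all genes. Between day 14 and day 42 only Hist1h2be passed the test, rising, against 2.18% of all genes higher and 1.51% lower.

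No member passed in limma between days 1 and 4 (background 0.044% higher, 0.0189% lower) or between days 4 and 7 (0% higher, 0.00629% lower). At an unadjusted p under 0.05 there were 5 members, all lower, between days 1 and 4, and 18, all lower, between days 4 and 7. A fit that weights the arrays called 3 and 28 members in these steps, against 2.96% and 28.6% of all genes. Leaving out the 5 low-signal arrays called 0 members in both (background 0.0757% higher and 0.00631% lower, then 0% and 0.0505%). The median difference over all 46 measured members was -0.44 from day 1 to day 4 and -0.77 from day 4 to day 7, against -0.00 and -0.22 over all genes. The later medians were -0.33 from day 7 to day 14, 0.28 from day 14 to day 42 and -1.14 from day 1 to day 42, against 0.05, 0.04 and -0.13. Over the 42 tested members the medians, in this order, were -0.49, -0.78, -0.39, 0.28 and -1.46 with every array. Without the 5 low-signal arrays they were -0.35, -0.33, -0.39, -0.09 and -1.23. Over all tested genes they were then 0.04, -0.04, 0.02, -0.03 and -0.03. The positive median from day 14 to day 42 was thus not kept, and that from day 4 to day 7 was smaller in size.

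Without the 5 low-signal arrays, 20 members fell and 10 rose between days 7 and 14, against 18.1% and 20.5% of all genes. All 15 members called with every array were among them. None of the 5 arrays is of day 7 or 14, so the differences in this step stayed the same and only their errors changed. For Hist1h1a the difference was -1.01 both ways, with an SE of 0.38 and then 0.21. From day 14 to day 42, 2 rose and 2 fell, against 6.75% and 6.85%. From day 1 to day 42, 27 fell and 7 rose without them, against 24.1% and 22.6%, and 29 of the 30 earlier calls were kept. The exception was Hist1h2bp. The arrays lay on 3 slides, each with several ages. The members' median difference from day 1 to day 42 was -1.52 within slide 1, -1.59 within slide 2 and -0.13 within slide 3, where the sole day 42 array is the low-signal replicate 4. Over all genes the medians were -0.50, -0.25 and 0.82, so the members lay below all genes on each slide.

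**Figure D2:**
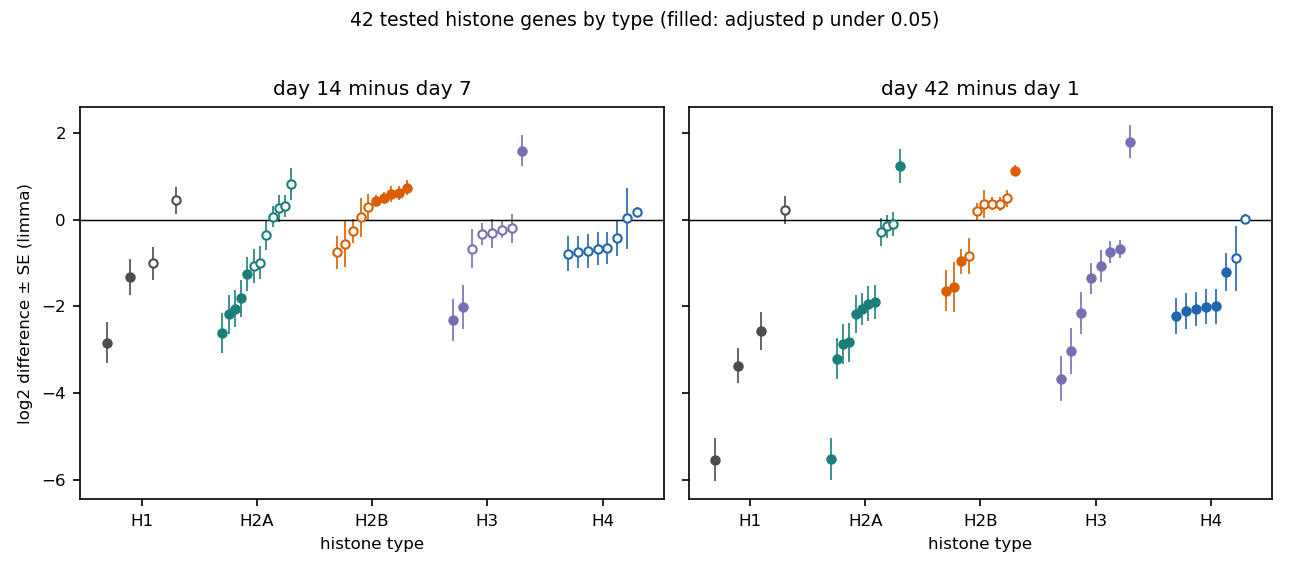
Log2 difference with its standard error for each of the 42 tested histone genes, grouped by histone type, between days 7 and 14 (left) and days 1 and 42 (right), with filled points where the adjusted p is under 0.05. From day 7 to day 14 the 5 filled H2B points lie above 0 and the 5 filled H2A points below it; from day 1 to day 42 the H1, H2A, H3 and H4 columns each hold filled points below -2.

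Linker histone H1 binds the DNA between nucleosomes and compacts chromatin. Of its 4 tested genes 3 fell from day 1 to day 42, and 2 of them also fell from day 7 to day 14. With the 5 low-signal arrays left out, 3 fell and 1 rose in both comparisons. Among all genes 13.7% were lower from day 1 to day 42 and 5.54% from day 7 to day 14. Without the low-signal arrays 24.1% were lower and 22.6% higher from day 1 to day 42, and 18.1% and 20.5% from day 7 to day 14. Hist1h1b, which makes H1.5, measured 3.19, 2.76, 2.91, 4.96 and 3.91 at day 1, 3.26, 2.33, 3.25, 2.16 and 2.09 at day 4 and 1.05, 0.83, 0.89, 0.9 and 1.61 at day 7. At day 14 its levels were -2.13, -2.32, -1.95, -2.34 and -0.22, and at day 42 -1.84, -2.62, -2.93 and -0.59. Every array of days 14 and 42 lay below every array of the earlier ages, although day 14 replicate 5 stood well above its group. The fall from day 7 to day 14 was -2.84 ± 0.47 (SE; adjusted p = 0.000246). From day 1 to day 42 it was -5.54 ± 0.50 (adjusted p = 2.56e-08), a 46.6-fold lower signal with a 95% interval of 22.9 to 95.1.

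Hist1h1a, which makes H1.1, measured -1.49, -1.57, -1.57, 0.56 and -0.35 at day 1 and -1.2, -2.2, -1.11, -2.54 and -2.28 at day 4. Its levels were -3.05, -2.94, -3.29, -3.21 and -2.66 at day 7, -4.53, -4.26, -3.15, -4.43 and -3.83 at day 14 and -4.45, -4.35, -4.64 and -3.56 at day 42. It was lower at day 42 than at day 1 without overlap, by -3.37 ± 0.41 (adjusted p = 1.39e-06). Its step from day 7 to day 14, -1.01 ± 0.38, did not pass (adjusted p = 0.0999), and did pass without the 5 low-signal arrays (adjusted p = 0.00119). Hist1h1e, which makes H1.4, fell by 2.57 ± 0.44 from day 1 to day 42 (adjusted p = 9.5e-05).

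Hist1h1c, which makes H1.2, did not share this course. It measured 2.11, 1.77, 1.75, 3.48 and 2.97 at day 1, 2.73, 1.72, 2.34, 1.8 and 1.83 at day 4, 1.45, 1.38, 1.51, 1.49 and 2.02 at day 7, 2.16, 2.15, 2.36, 1.78 and 1.62 at day 14 and 2.38, 2.51, 2.17 and 3.47 at day 42. Day 7 held the lowest mean, and days 1 and 42 overlapped widely, with a difference of 0.22 ± 0.33 (adjusted p = 0.673). Over the 19 arrays that remain without the low-signal ones, that difference was 0.48 ± 0.19 and passed (adjusted p = 0.0463). The germ cell gene Hist1h1t was not well above background on any array but day 14 replicate 3. Its values were -7.77, -6.84, -6.71, -4.62 and -6.69 at day 1, -6.89, -6.81, -5.84, -7.94 and -6.63 at day 4, -8.04, -7.24, -6.71, -7.09 and -6.37 at day 7, -6.7, -7.6, -3.23, -7.07 and -7.17 at day 14 and -6.43, -7.33, -7.19 and -7.12 at day 42, and all but the value of -3.23 are readings of dim spots. On day 14 replicate 3, 79.7% of spots were well above background, against 50.4% to 64.6% on the other arrays. The median level of all its probes was -3.38, against -4.47 to -3.99 on the others. The value of -3.23 thus lay near the median probe of that array, and whether it reads Hist1h1t mRNA was not tested. Hist1h1d was above background on 3 arrays, and neither it nor Hist1h1t was tested.

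H2A pairs with H2B in the nucleosome. Of 12 tested H2A genes 8 fell from day 1 to day 42 and 1 rose, and the median over the 13 measured was -1.94. From day 7 to day 14, 5 fell and none rose. When the 5 low-signal arrays were left out, 7 fell and 3 rose in that step, and the counts from day 1 to day 42 stayed at 8 and 1. With every array 13.7% of all genes were lower and 13% higher from day 1 to day 42, and 5.54% and 6.04% from day 7 to day 14. Without the low-signal arrays these shares were 24.1% and 22.6%, and 18.1% and 20.5%. Hist1h2ab measured 2.84, 2.41, 2.37, 4.62 and 3.74 at day 1, 2.9, 1.71, 2.82, 1.62 and 1.57 at day 4 and 0.5, 0.42, 0.46, 0.12 and 1.01 at day 7. It then measured -2.36, -2.57, -2.29, -2.64 and -0.72 at day 14 and -2.14, -2.98, -3.06 and -1.13 at day 42. As for Hist1h1b, the last 2 ages lay below all the earlier ones, with day 14 replicate 5 the highest of its group. The difference was -2.62 ± 0.46 from day 7 to day 14 (adjusted p = 0.000421) and -5.52 ± 0.48 from day 1 to day 42 (adjusted p = 2.05e-08), a 45.9-fold lower signal.

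Hist1h2ag measured 7.33, 7.03, 7.08, 8.98 and 8.24 at day 1, 7.87, 6.84, 8.02, 6.93 and 6.45 at day 4 and 6.32, 6.17, 6.46, 6.26 and 6.88 at day 7. Its levels were 3.8, 4, 3.54, 3.97 and 5.84 at day 14 and 4.44, 3.95, 3.88 and 5.8 at day 42. All 9 late arrays lay below every earlier one, and the step from day 7 to day 14 was -2.19 ± 0.45 (adjusted p = 0.0021). Hist1h2ah, the H2A gene with the brightest probe, measured 7.79, 7.41, 7.5, 9.47 and 8.74 at day 1, 8.41, 7.34, 8.57, 7.41 and 7 at day 4 and 6.85, 6.73, 6.93, 6.84 and 7.42 at day 7. It measured 5.54, 5.68, 5.21, 5.49 and 6.56 at day 14 and 5.69, 5.57, 5.54 and 7.2 at day 42. It fell by 1.26 ± 0.40 from day 7 to day 14 (adjusted p = 0.0446) and by -2.18 ± 0.43 from day 1 to day 42 (adjusted p = 0.000435), and day 42 replicate 4 stood apart from the other 3 arrays of its age. The first of these calls lay near the threshold and 17 of 37 other settings lost it, with adjusted p up to 0.119. Hist1h2ak (-2.83), Hist1h2an (-2.87), Hist1h2ae (-2.06), Hist1h2af (-1.94) and Hist2h2ac (-1.90) also fell from day 1 to day 42.

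Hist2h2aa1 was the H2A gene that rose. It measured 2.45, 2.14, 1.97, 4.06 and 3.43 at day 1, 3.83, 2.39, 3.36, 2.84 and 2.38 at day 4, 2.34, 2.4, 2.37, 2.39 and 2.96 at day 7, 3.43, 3.52, 3.29, 3.44 and 2.9 at day 14 and 3.91, 3.67, 3.48 and 5.09 at day 42. Its day 1 and day 42 groups overlapped through the low-signal day 1 replicate 4. The difference was 1.23 ± 0.39 (adjusted p = 0.021) with every array and 1.50 ± 0.20 (adjusted p = 1.32e-05) without the 5 low-signal ones. The call was lost without day 1 replicate 2 (adjusted p = 0.0547), day 1 replicate 3 (0.058) or day 42 replicate 4 (0.0766). It was also lost with median scaling (0.0768) and with the 2 ages fitted alone (0.16). Hist1h2aa, a germ cell H2A, measured -1.85, -2.11, -2.13, -0.31 and -0.97 at day 1, -1.22, -1.81, -0.99, -1.92 and -2.03 at day 4, -2.31, -2.32, -2.29, -2.36 and -1.9 at day 7, -1.86, -1.9, -2.01, -2.06 and -2.06 at day 14 and -2.12, -1.94, -2.14 and -0.84 at day 42. Its ages overlapped and it differed by -0.29 ± 0.33 between days 1 and 42 (adjusted p = 0.57). Hist1h2ac (-0.16) and Hist3h2a (-0.11) did not pass either, Hist2h2ab was above background on no array, and the probe of Hist2h2aa2 was not usable on every array.

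Of the 10 tested H2B genes 5 rose from day 7 to day 14 and none fell, while from day 1 to day 42, 3 fell and 1 rose, with a median of 0.19 over 11 measured genes. Without the 5 low-signal arrays 5 rose and 1 fell in the first comparison, and 4 rose and 3 fell in the second. With every array 6.04% of all genes were higher and 5.54% lower in the first comparison, and 13% and 13.7% in the second. Without the low-signal arrays these shares were 20.5% and 18.1%, and 22.6% and 24.1%. The rises from day 7 to day 14 were small, and whether they passed depended on 1 array and on the scaling. Without day 14 replicate 1 the 5 differences were little changed, at 0.39 to 0.69 against 0.44 to 0.74 with it. Only Hist1h2bc then passed, at 0.69 (adjusted p = 0.0231). With each array set to its median, which moves the median difference of all tested genes from 0.02 to -0.15, none of the 5 passed. Hist1h2bc, the H2B gene with the brightest probe, measured 3.61, 3.34, 3.42, 4.13 and 4.2 at day 1, 3.71, 3.38, 3.56, 3.39 and 3.38 at day 4 and 3.06, 2.96, 3, 2.8 and 3.34 at day 7. It measured 3.95, 3.99, 3.75, 3.67 and 3.48 at day 14 and 4.08, 4.15, 4.12 and 4.55 at day 42. Day 7 was the lowest age, and the day 14 arrays all lay above it, by 0.74 ± 0.17 (adjusted p = 0.00622), or by 0.56 with median scaling (adjusted p = 0.212). Between days 1 and 42 the difference of 0.49 ± 0.19 did not pass (adjusted p = 0.0564), and passed at 0.66 ± 0.14 without the 5 low-signal arrays (adjusted p = 0.000886).

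Hist1h2bm followed the same course, with 1.53, 1.36, 1.47, 2.19 and 1.93 at day 1, 1.53, 1.15, 1.53, 1.22 and 1.22 at day 4 and 0.83, 0.69, 0.92, 0.72 and 1.17 at day 7. It measured 1.72, 1.59, 1.35, 1.45 and 1.31 at day 14 and 1.91, 1.99, 2.01 and 2.31 at day 42. All 5 arrays of day 14 exceeded those of day 7, by 0.61 ± 0.16 (adjusted p = 0.0136), a call that was lost at 0.56 without day 14 replicate 1 (adjusted p = 0.05) and at 0.44 with median scaling. Hist1h2ba, a germ cell H2B, measured 1.57, 1.26, 1.44, 2.32 and 2.13 at day 1, 1.57, 1.21, 1.57, 1.27 and 1.36 at day 4 and 0.81, 0.76, 0.91, 0.63 and 1.2 at day 7. It measured 1.66, 1.57, 1.3, 1.47 and 1.29 at day 14 and 1.77, 1.91, 1.79 and 2.25 at day 42. It rose by 0.59 ± 0.18 from day 7 to day 14 (adjusted p = 0.0366), a call that 10 of 37 other settings lost. The levels of Hist1h2ba and Hist1h2bm moved so closely together that their difference had an SD of 0.09 over 24 arrays, and whether either probe also binds mRNA of the other gene was not tested. Of 6 tested male germ cell markers 1, Sycp3, rose from day 1 to day 42, by 1.69 ± 0.50 (adjusted p = 0.013), where 13% of all genes were higher. Its mean levels were -7.06 at day 1 and -5.36 at day 42. The dimmest values well above background were -6.01 to -4.44 on the day 1 arrays and -6.23 to -4.92 on those of day 42. Readings of this gene thus lay near background, and the size of its rise is uncertain. Without the 5 low-signal arrays 2 of the 6 markers rose, against 22.6% of all genes.

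Hist1h2be was nearly level over the first 7 days and then rose in 2 steps. Its levels were -1.55, -1.59, -1.6, -1.74 and -1.64 at day 1, -1.65, -1.58, -1.48, -1.75 and -1.65 at day 4 and -1.67, -1.79, -1.61, -1.77 and -1.86 at day 7. It measured -1.1, -1.24, -1.31, -1.36 and -1.51 at day 14 and -0.68, -0.48, -0.53 and -0.28 at day 42. Every day 14 array lay above every earlier day 7 array but not above all of day 4, and every day 42 array lay above every other array. The differences were 0.44 ± 0.12 from day 7 to day 14 (adjusted p = 0.0139, or 0.0564 without day 14 replicate 1), 0.81 ± 0.12 from day 14 to day 42 (adjusted p = 0.000381) and 1.13 ± 0.12 from day 1 to day 42 (adjusted p = 3.43e-07). On this gene the low-signal day 1 arrays were the lowest of their age. Hist2h2be, the remaining H2B gene to rise from day 7 to day 14, did so by 0.50 ± 0.14 (adjusted p = 0.0243), or by 0.46 without day 14 replicate 1 (adjusted p = 0.0763).

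The dim H2B probes showed other courses. Hist1h2bq measured -4.18, -4.64, -4.03, -6.42 and -5.63 at day 1, -5.76, -5.44, -5.9, -5.02 and -5.39 at day 4, -4.63, -4.59, -4.8, -5.44 and -5.29 at day 7, -5.76, -6, -5.84, -5.82 and -5.12 at day 14 and -5.3, -5.18, -5.9 and -6.9 at day 42. It was above background on 3, 1, 4, 1 and 2 arrays of these ages, and its low-signal day 1 arrays were the lowest of their age. Its step from day 7 to day 14, -0.76 ± 0.38, did not pass (adjusted p = 0.246). Hist1h2bg measured -5.01, -5.62, -5.48, -6.54 and -5.55 at day 1, -5.93, -6.1, -6.43, -6.64 and -5.96 at day 4, -5.62, -6.69, -4.9, -6.28 and -6.59 at day 7, -5.8, -5.38, -5.71, -5.78 and -6 at day 14 and -4.86, -5.32, -5.33 and -5.61 at day 42. It was above background on 3, 0, 2, 2 and 3 arrays, and the ages overlapped. Hist2h2bb (-1.64), Hist1h2bp (-1.56) and Hist3h2ba (-0.96) fell from day 1 to day 42, the first 2 of them above background on 2 and 1 of the 4 day 42 arrays. Hist1h2bb was above background on 2 arrays and was not tested.

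H3 and H4 form the centre of the nucleosome. All 8 H3 genes passed from day 1 to day 42, 7 of them falling and 1 rising, and the counts were equal without the 5 low-signal arrays. From day 7 to day 14, 2 fell and 1 rose, or 4 and 1 without those arrays. With every array 13.7% of all genes were lower and 13% higher from day 1 to day 42, and 5.54% and 6.04% from day 7 to day 14. Without the low-signal arrays these shares were 24.1% and 22.6%, and 18.1% and 20.5%. Hist1h3g measured -2.89, -3.28, -3.05, -0.87 and -1.78 at day 1, -2.75, -3.71, -2.85, -3.95 and -3.4 at day 4 and -4.37, -4.62, -4.13, -4.11 and -3.75 at day 7. It measured -6.46, -7.25, -6.07, -7.41 and -5.43 at day 14, where 1 of 5 arrays was above background, and -5.25, -6.34, -7.51 and -5.08 at day 42, where 1 of 4 was. All the late readings lay below all the earlier ones, with differences of -2.32 ± 0.48 from day 7 to day 14 (adjusted p = 0.002) and -3.67 ± 0.51 from day 1 to day 42 (adjusted p = 8.19e-06). Because most late spots were at background, these sizes are uncertain, and with normexp background correction the first was -0.53 and did not pass (adjusted p = 0.339).

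Hist1h3d, the H3 gene with the brightest probe, measured 5.13, 4.67, 4.75, 5.99 and 5.71 at day 1, 5.72, 5.07, 5.54, 5.02 and 4.95 at day 4, 4.55, 4.67, 4.66, 4.61 and 5.01 at day 7, 4.38, 4.38, 4.13, 4.27 and 4.65 at day 14 and 4.17, 4.33, 4.26 and 5.23 at day 42. Its day 42 arrays lay below all of day 1 except for replicate 4, and the fall was -0.75 ± 0.26 (adjusted p = 0.0352). The call was lost with the slide as a block (adjusted p = 0.0525), with the replicate number as a block (0.0591), with median scaling (0.109) and with the 2 ages fitted alone (0.242). Leaving out a single array ended it for replicate 4 (adjusted p = 0.0964) or 5 (0.0966) of day 1 and for replicate 1 (0.12), 2 (0.096) or 3 (0.106) of day 42. Hist1h3a (-3.03), Hist1h3i (-2.16), Hist2h3c1 (-1.36), Hist1h3f (-1.07) and Hist1h3c (-0.68) fell as well, and Hist1h3a also fell from day 7 to day 14, by -2.02 ± 0.50 (adjusted p = 0.00883).

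Hist2h3c2 was the H3 gene that rose, and its rises were the largest of any member. It measured -1.36, -1.68, -1.72, 0.09 and -0.65 at day 1, 0.03, -1.35, -0.37, -0.96 and -1.38 at day 4 and -1.28, -1.45, -1.37, -1.38 and -0.93 at day 7. It measured 0.53, 0.67, 0.28, 0.43 and -0.37 at day 14 and 0.26, 0.4, 0.42 and 1.88 at day 42. The day 14 arrays all exceeded those of day 7, and the day 42 arrays those of day 1. Both calls below were kept in all 37 other settings. The difference was 1.59 ± 0.36 from day 7 to day 14 (adjusted p = 0.00399), a 3.01-fold higher signal, and 1.80 ± 0.38 from day 1 to day 42 (adjusted p = 0.000875), a 3.49-fold higher signal with a 95% interval of 2.02 to 6.01.

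Of 8 tested H4 genes, 6 fell from day 1 to day 42, by -1.21 for Hist1h4c and by -2.00 to -2.23 for the others, and none passed from day 7 to day 14. With the 5 low-signal arrays left out, 6 fell from day 1 to day 42 and 5 from day 7 to day 14. Among all genes 13.7% were lower from day 1 to day 42 and 5.54% from day 7 to day 14, or 24.1% and 18.1% without those arrays. Hist1h4k, with the brightest probe, measured 4.18, 3.85, 3.89, 5.93 and 5 at day 1, 4.63, 3.69, 4.41, 3.44 and 3.59 at day 4, 2.81, 2.77, 2.92, 2.7 and 3.56 at day 7, 2.17, 2.15, 1.95, 2.15 and 2.66 at day 14 and 2.31, 2.05, 1.95 and 3.71 at day 42. Its levels fell by 2.06 ± 0.39 from day 1 to day 42 (adjusted p = 0.000334), without overlap. Hist1h4d measured 2.94, 2.65, 2.73, 4.83 and 3.87 at day 1, 3.45, 2.53, 3.34, 2.29 and 2.36 at day 4, 1.58, 1.66, 1.74, 1.51 and 2.34 at day 7, 0.91, 1, 0.53, 0.89 and 1.55 at day 14 and 0.84, 0.76, 0.57 and 2.53 at day 42. Its difference of -2.23 ± 0.42 (adjusted p = 0.000306) was also free of overlap, and in both genes day 42 replicate 4 was far above the rest of its age. The step from day 7 to day 14 was -0.74 ± 0.37 for Hist1h4k (adjusted p = 0.245) and passed without the 5 low-signal arrays (adjusted p = 0.00172).

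The difference between the levels of Hist1h4k and Hist2h4 had an SD of 0.05 over the 24 arrays, and that between Hist1h4d and Hist2h4 an SD of 0.08. H4 genes encode nearly the same protein, and the probe sequences were not used here, so the extent to which these probes read a common pool of H4 mRNA was not tested. Hist1h4h did not share the fall, with a difference of 0.01 ± 0.12 between days 1 and 42 (adjusted p = 0.971). Hist1h4i differed by -0.89 ± 0.75 (adjusted p = 0.429).

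**Figure D3:**
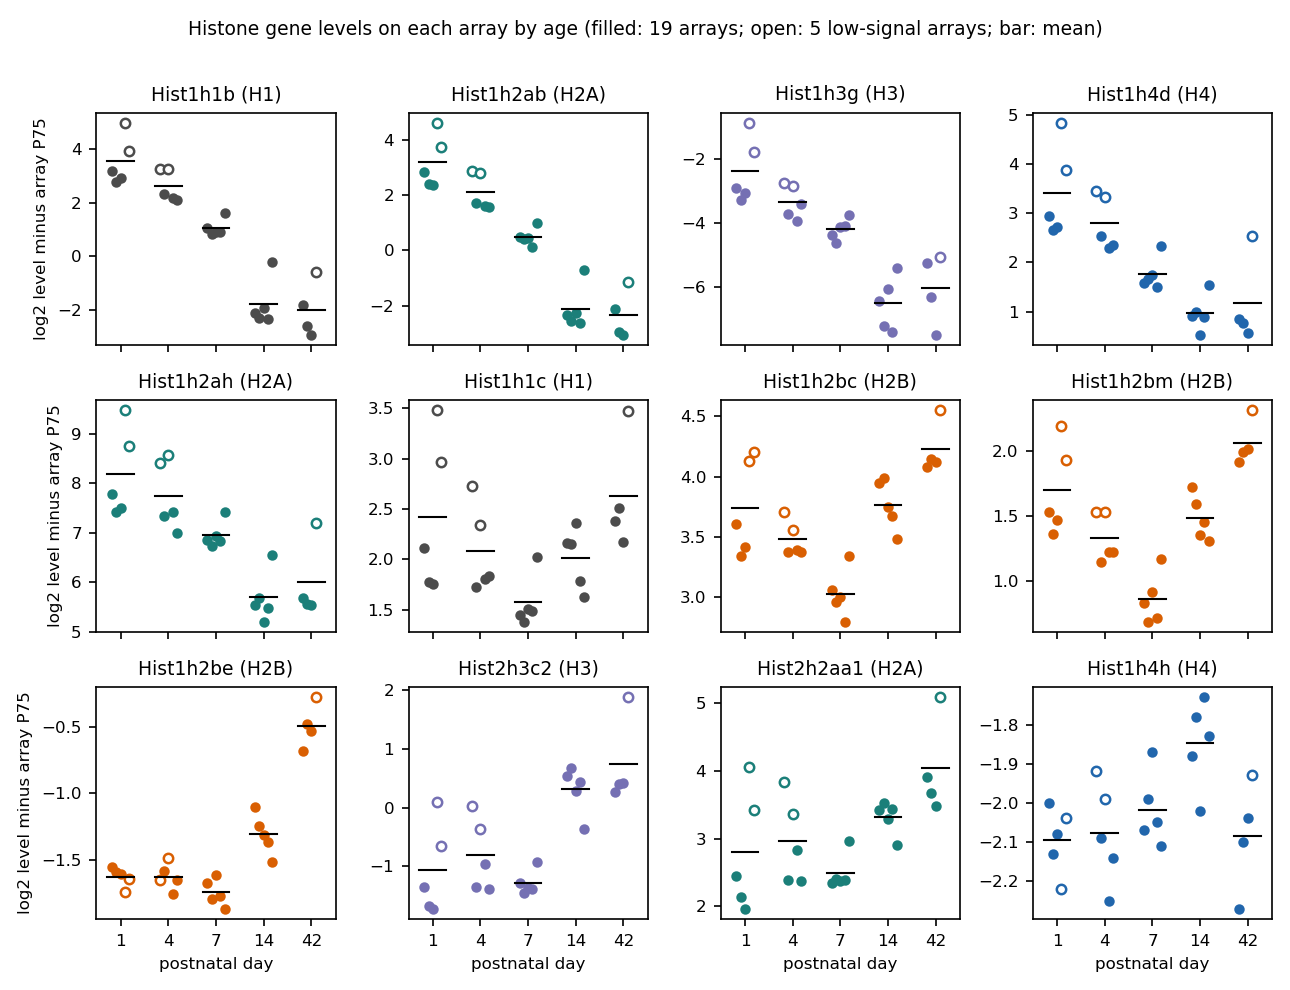
Level of 12 histone genes on each array (log2 intensity minus the array's 75th percentile) against postnatal day, with a bar at the mean of each age, filled points for 19 arrays and open points for the 5 low-signal arrays; the vertical scales differ. Hist1h1b and Hist1h2ab drop between days 7 and 14, Hist1h2bc and Hist1h2bm are lowest at day 7, and Hist1h2be and Hist2h3c2 are highest at day 42.

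By likeness of pattern, measured as the SD over 24 arrays of the difference between 2 tested members' levels, the nearest member to Hist1h1b was Hist1h2ab at 0.15, and the next was Hist1h3g at 0.79. The nearest to Hist1h2ah was Hist1h2af at 0.13, and to Hist1h2ag it was Hist1h2an at 0.19. Hist1h2bc lay nearest to Hist1h2bm, at 0.12. Hist2h3c2 lay nearest to Hist2h2aa1, at 0.37. The array-wide offsets described above were not equal in all members. On each low-signal day 1 array, 28 of the 33 members above background everywhere lay above the 3 other arrays of that age. An offset equal in 2 members cancels in their difference, and an unequal one adds to its spread.

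Hist2h3c2 and Hist2h2aa1 are neighbours in the Hist2 cluster of chromosome 3, separated there by the unmeasured Hist2h2aa2. In chromosomal order Hist2h2ac differed by -1.90 between days 1 and 42, Hist2h2be by 0.36, Hist2h3c2 by 1.80, Hist2h2aa1 by 1.23, Hist2h3c1 by -1.36, Hist2h4 by -2.11 and Hist2h2bb by -1.64. Thus the rising pair had falling genes on either side at a distance of no more than 2 gene places. Of the 32 tested Hist1 genes 21 fell and 1 rose, and of the 7 tested Hist2 genes 4 fell and 2 rose. Over the 19 arrays that remain without the low-signal ones, these counts were 21 and 5 for Hist1, and 4 and 2 for Hist2. Among all genes 13.7% were lower and 13% higher with every array, and 24.1% and 22.6% without the low-signal ones. Hist4h4 fell by 2.00, and of the Hist3 genes Hist3h2ba passed and Hist3h2a did not.

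**Figure D4:**
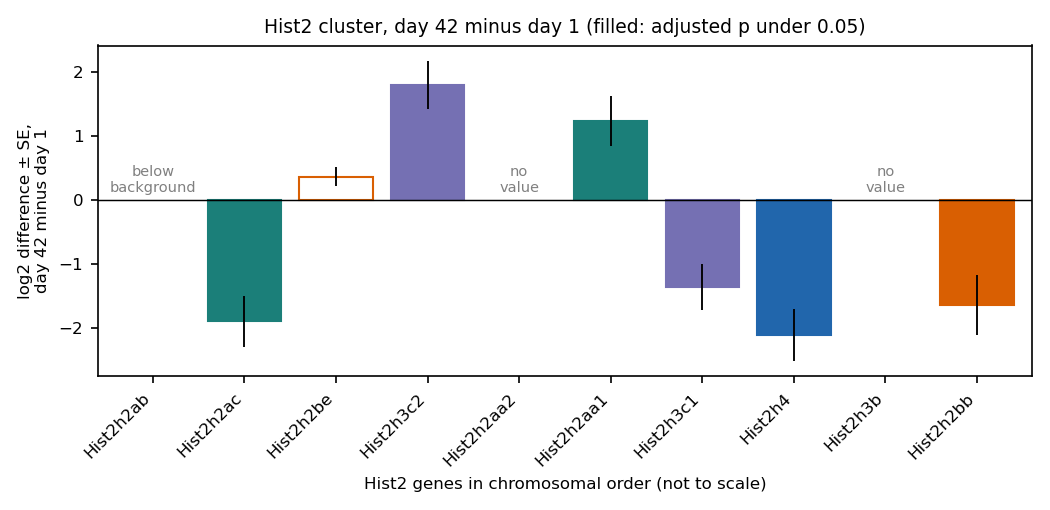
Log2 difference between days 1 and 42 with its standard error for the Hist2 genes in their order on chromosome 3 (distances not to scale), filled where the adjusted p is under 0.05. Hist2h3c2 (1.80) and Hist2h2aa1 (1.23) rise above 0 between genes that lie as low as -2.11.

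Genes that work beside the histones in dividing cells also fell. Among all genes 5.54% fell from day 7 to day 14 and 13.7% from day 1 to day 42, or 18.1% and 24.1% without the 5 low-signal arrays. Of 37 tested DNA replication genes 23 fell from day 7 to day 14 and 33 from day 1 to day 42, with medians of -1.04 and -1.85 and none higher. When the 5 low-signal arrays were left out, the counts were 35 and 36. Rrm2 and Tk1, which make nucleotides for DNA synthesis, fell by 3.39 ± 0.29 and -3.44 ± 0.42 from day 1 to day 42. Of 22 mitosis genes 19 fell from day 7 to day 14 and 22 from day 1 to day 42, with medians of -2.22 and -3.54, and without those arrays 22 fell in both. Aurkb and Cdk1, kinases that drive mitosis, fell by 4.15 ± 0.41 and -4.08 ± 0.40. Hist1h1b and Hist1h2ab were lower than at day 1 by more than any gene of these lists.

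Among 17 histone chaperones, 6 fell from day 7 to day 14 and 12 from day 1 to day 42, against 5.54% and 13.7% of all genes. None rose. Without the 5 low-signal arrays 13 fell in both, against 18.1% and 24.1%. Asf1b and Chaf1b, which hand new H3 and H4 to freshly copied DNA, fell by 2.87 ± 0.36 and -2.86 ± 0.37 from day 1 to day 42. Of 14 tested genes for histone mRNA transcription, 3′ processing and decay, none passed from day 7 to day 14 and 3 fell from day 1 to day 42, where 13.7% of all genes were lower, with a median of -0.32. With the 5 low-signal arrays left out, 6 of the 14 fell in the first comparison and 7 in the second, against 18.1% and 24.1% of all genes. Slbp, which binds the stem-loop of these mRNAs, fell by 1.00 ± 0.25 (adjusted p = 0.00438), and Lsm11 of the U7 particle fell by 1.38 ± 0.39 (adjusted p = 0.00965).

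Histone variants made outside the clusters also fell. Of 11 tested, 5 fell from day 7 to day 14 and 10 from day 1 to day 42, against 5.54% and 13.7% of all genes. The median from day 1 to day 42 was -1.52, and none rose. Over the 19 arrays that remain without the low-signal ones, 10 fell in both, against 18.1% and 24.1%. Cenpa, the H3 variant of centromeres, fell by 2.93 ± 0.33, and H2ax, which marks broken DNA, by -2.63 ± 0.39. H3f3a and H3f3b, which make the H3.3 deposited throughout the cell cycle, fell by 0.66 ± 0.20 and -0.51 ± 0.14.

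Markers of other cells were set beside these results, and their part in them was not tested. Of 9 tested red cell precursor markers 7 fell from day 1 to day 42 and 6 from day 14 to day 42, against 13.7% and 1.51% of all genes. None passed from day 7 to day 14. When the 5 low-signal arrays were left out, 7 fell in each of the first 2 comparisons, against 24.1% and 6.85%. From day 7 to day 14, 4 then rose, against 20.5%. Their summed level relative to the array's 75th percentile was 38.8 to 68.4 at day 7, 57.7 to 83.3 at day 14 and 18.1 to 59.6 at day 42. Of 7 neutrophil precursor markers 3 fell from day 1 to day 42, against 13.7% of all genes. Their summed levels were 7.02 to 45 at day 1 and 4.66 to 17 at day 42. Without the 5 low-signal arrays 2 of the 6 that could be tested fell, against 24.1%. No cardiac muscle marker of 7 passed in any comparison, with or without the 5 low-signal arrays. Of 14 lung markers 3 rose from day 7 to day 14, where 6.04% of all genes were higher, and 2 from day 1 to day 42, among them Scgb1a1 of club cells, by 1.30 ± 0.28 from day 1 to day 42, where 13% of all genes were higher. Without the 5 low-signal arrays 9 of the 14 rose in both comparisons, against 20.5% and 22.6% of all genes. Mean levels at day 42 were 8.50 for Scgb1a1 and 7.76 for Sftpa1, a surfactant protein gene, so the labelled tissue carries its own defining markers.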

How the data were processed

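Scanner files of 24 arrays were used. Per the file headers, Agilent Feature Extraction 10.7.3.1 made them (10.7.1.1 per the submitters' processing notes), and the deposited intensity of each spot is already background-subtracted. The authors also deposited a series table of log2 values whose scaling is not given in the sources used here; each column followed the log2 intensity of its array, and the table served as an alternative. From the intensity, log2 values minus each array's 75th percentile were computed, without spots flagged as non-uniform; repeated spots were averaged per probe, and the probe with the highest mean stood for a gene. A gene was tested if well above background on at least 4 of 24 arrays. All arrays entered 1 fit with a mean per age (limma 3.58.1 in R 4.3.3, lmFit and eBayes), with Benjamini-Hochberg adjustment over 15895 genes. On simulated data of that size the day 14 minus day 7 test recovered 36% of 2-fold and 87% of 4-fold changes. Alternatives were normexp background correction, quantile and median scaling, other filters, slide and replicate blocks, array weights, the 2 ages alone, and each array left out; the signal column normexp used was the median of spot pixels.

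Members were matched through the RefSeq table's synonyms, since its current symbols differ; the table's build is GRCm38.p6, that of the array design mm9, so it served for names, order and promoter sequences. Named members were, per comparison, at most the 4 largest rises and falls; per histone type the brightest tested gene and the one with the largest difference from day 7 to day 14; up to 6 genes higher at day 42 than at day 1; and the germ cell genes. Members and gene lists were chosen with earlier results of these data known. Same-numbered arrays of different ages did not deviate together (correlations of -0.849 to 0.879, median -0.00985, over 46 pairs), and the numbers were not treated as pairs. Array-wide offsets enter these correlations, so they cannot exclude a pairing. The number of arrays limits the precision.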

Additional observations from a re-analysis of the deposited data

Results flagged for a closer look

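Of 100 groups formed by a named member at one age, 18 held an array whose distance from the nearest other array took up more of the group's range than Dixon's 95% critical value, where chance gives about 1 in 20. All 18 were the highest of their group. At day 42 the array was replicate 4, of low signal, in each case: Hist2h3c2 at 1.88, Hist1h2bc at 4.55, Hist1h2ah at 7.20, Hist1h3d at 5.23, Hist1h4d at 2.53 and Hist1h2aa at -0.84. At day 7 it was replicate 5 in each case: Hist1h1b at 1.61, Hist2h2aa1 at 2.96, Hist1h1c at 2.02, Hist1h3d at 5.01, Hist1h4k at 3.56, Hist1h4d at 2.34 and Hist1h2aa at -1.90. At day 14 it was replicate 5 for Hist1h1b at -0.22, Hist1h2ab at -0.72, Hist1h2ag at 5.84 and Hist1h2bq at -5.12, and replicate 3 for Hist1h1t at -3.23. Replicate 3 of day 14 is the array with the largest share of spots well above background, 79.7%, and its median probe stood at -3.38.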

How the results depend on the processing

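Counts of histone members past the test are given here for days 1 to 4, 4 to 7, 7 to 14, 14 to 42 and 1 to 42; with the settings of the report they were 0, 0, 15, 1 and 30, and 32 for any age. Of all genes these settings called 0.0629%, 0.00629%, 11.6%, 3.69% and 26.7%, and 31.8% for any age. Array weights gave 3, 28, 34, 12 and 34, against 2.96%, 28.6%, 60.4%, 31.2% and 52% of all genes. Fitting the compared ages alone gave 25 from day 7 to day 14 and 0 from day 14 to day 42, against 31% and 1.3%. The authors' series table gave 26 and 3 for these steps (22.4% and 9.59% of all genes). Quantile normalization gave 22 and 2 (18% and 6.12%), and median scaling gave 8 and 1 (8.21% and 2.92%). Leaving out the 5 low-signal arrays, an alternative chosen after seeing the data, gave 30 and 4 (38.6% and 13.6%). Leaving out day 14 replicate 5 as well gave 1, 2, 31, 5 and 34. Leaving out each array in turn gave 0 in the first 2 steps, 9 (7 lower and 2 higher, without day 14 replicate 1) to 18 (without day 1 replicate 4) from day 7 to day 14, 1 to 2 from day 14 to day 42, 25 to 30 from day 1 to day 42 and 29 to 34 for any age. With the replicate number as a block the counts were 0, 0, 14, 1 and 28, and with the slide 0, 0, 13, 1 and 28. Of all genes the replicate block called 0.044%, 0.00629%, 10.8%, 3.19% and 24.3%, and the slide block 0.044%, 0.00629%, 11%, 3.41% and 25.6%. The main fit did not treat the replicate numbers as pairs. Of 23 called differences of named members, 14 kept their call in every setting that gave a value and none reversed.

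Probes at background limit the sizes for Hist1h3g, Hist1h3i, Hist1h2ae and the dim H2B genes. Near-identical histone genes may share probe signal, and the probe sequences were not used. Where a gene has 2 probes, those of Hist1h4i and of Hist1h4k gave the same direction from day 1 to day 42 (-0.89 and -0.50, and -2.06 and -1.90). The dimmer probe of Hist2h4, above background on 5 arrays, differed from the brighter from day 7 to day 14 (0.32 against -0.73).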
